A study of Mus musculus with 47 samples.

Results

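Cldn5 and 9 other genes of the blood-brain barrier endothelium were followed across 2 brain regions, 2 genotypes and 2 diets. They comprise the tight junction genes Cldn5, Ocln and Tjp1, the transport genes Mfsd2a, Slc2a1, Abcb1a and Slco1a4, and the endothelial adhesion and receptor genes Pecam1, Cdh5 and Flt1. The genes were chosen by symbol as known brain endothelial genes and were matched to the mouse gene IDs of the count tables. They make up 10 of the 33139 genes listed in brainstem and 10 of the 31751 listed in hippocampus. All 10 passed the filter on low values, which asked for 50 counts or more per library on average within a region, as did 13340 genes in brainstem and 13272 in hippocampus. The lowest count of any of the 10 genes in any library was 121, for Cdh5. Results of these libraries were known when the list was drawn up, and which measured values bore on the choice is not recorded. The values below therefore describe the libraries, and the genotype difference of Cldn5 in brainstem is given without a p-value.

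RNA came from male C57BL/6 mice of about 1 year of age. Transgenic (TG) mice carried a human transgene driven by the Thy1 promoter, which is active in neurons of the central nervous system, and were kept as a homozygous colony. Wild-type (WT) controls descended from the same outcross and were bred as a parallel colony, so genotype and colony cannot be told apart. Mice of both genotypes received either a standard diet (SD) or a high-fat diet (HFD) from weaning on. Whole tissue was sequenced after poly(A) selection, from the hippocampus with all its subfields and from the brainstem, which was dissected as the medulla. Each group held 6 libraries per region, except brainstem WT SD with 5, since 1 RNA sample did not meet the integrity limit of the study. The labels do not say which libraries came from the same mouse. Levels are given as CPM, the count relative to the library total, scaled over all 47 libraries. In whole tissue, fewer endothelial cells and less RNA per endothelial cell cannot be told apart.

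Total counts ranged from 10020784 to 15078812 per library in brainstem and from 11945971 to 17328447 in hippocampus. The Thy1 row, which shares its promoter with the transgene, was separated by the genotype labels in every library, at 6534 to 9310 CPM in TG and 484.2 to 585.8 CPM in WT brainstem. In hippocampus, Thy1 lay at 6784 to 8169 CPM in TG and 540.1 to 603 CPM in WT, scaled within each region. A pair of brainstem libraries stood apart in base composition. The GC slope, the slope of a library's log2 CPM relative to the mean library of its region on the GC content of the genes, was −0.33 per 10% GC in TG HFD replicate 3 and −0.29 in TG SD replicate 1, against −0.19 to 0.18 in the other 45 libraries. The Cldn5 values and the counts of signs in brainstem are given with and without them.

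Endothelial cells of brain capillaries are sealed to one another by tight junctions, which leave little room for solutes to pass between cells. What the brain needs is carried across by transporters, many lipophilic compounds are pumped back into the blood, and transcytosis is held low. Pericytes, astrocyte endfeet and Wnt signals from neural cells maintain these features. Cldn5 encodes claudin-5, the main claudin of this junction, Ocln encodes occludin, and Tjp1 encodes the scaffold protein ZO-1, which many other cells also make. Slc2a1 encodes the glucose carrier GLUT1, Mfsd2a a carrier of lysophospholipids with docosahexaenoic acid that also restrains transcytosis, Abcb1a the efflux pump P-glycoprotein, and Slco1a4 the organic anion carrier Oatp1a4. Pecam1 and Cdh5 encode adhesion proteins of endothelial contacts, and Flt1 encodes VEGF receptor 1.

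The 250 bases upstream of the annotated start are shown for 4 genes, a pair that differed little between the regions (Cldn5, Tjp1) and a pair of transport genes that were lower in hippocampus (Slco1a4, Abcb1a). They were taken from RefSeq on GRCm38.p6, which held entries for 8 of the 10 genes, with none matched for Pecam1 and Cdh5. Capitals mark matches to 6 short motifs, each searched as written and as its reverse complement. The ETS core was searched as AGGAAG. For TCF/LEF factors the letters were TCAAAG. For SOX factors they were ACAAAG. The CCAAT box was searched by its name. The GC box was searched as GGGCGG. The TATA box was searched as TATAAA. The Cldn5 window lies at chr16:18776597-18776846 on the plus strand, that of Tjp1 at chr7:65371245-65371494 on the minus strand, that of Abcb1a at chr5:8566841-8567090 on the plus strand and that of Slco1a4 at chr6:141856221-141856470 on the minus strand. All 4 are written 5′ to 3′ along the gene.
Cldn5: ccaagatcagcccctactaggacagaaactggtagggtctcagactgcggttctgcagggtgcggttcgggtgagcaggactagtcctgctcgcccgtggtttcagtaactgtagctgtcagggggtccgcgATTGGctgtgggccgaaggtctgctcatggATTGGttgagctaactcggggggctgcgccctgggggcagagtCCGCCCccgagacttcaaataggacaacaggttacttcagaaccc
Tjp1: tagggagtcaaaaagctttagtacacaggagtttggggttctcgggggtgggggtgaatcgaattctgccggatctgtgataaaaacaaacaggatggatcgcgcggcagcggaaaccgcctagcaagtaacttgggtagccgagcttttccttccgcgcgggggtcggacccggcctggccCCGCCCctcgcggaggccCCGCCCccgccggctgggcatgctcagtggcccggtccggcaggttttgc
Abcb1a: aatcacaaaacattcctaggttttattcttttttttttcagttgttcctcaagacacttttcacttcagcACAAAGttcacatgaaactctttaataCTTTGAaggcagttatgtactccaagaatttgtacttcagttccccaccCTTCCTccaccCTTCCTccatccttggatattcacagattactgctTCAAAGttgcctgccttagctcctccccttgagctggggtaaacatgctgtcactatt
Slco1a4: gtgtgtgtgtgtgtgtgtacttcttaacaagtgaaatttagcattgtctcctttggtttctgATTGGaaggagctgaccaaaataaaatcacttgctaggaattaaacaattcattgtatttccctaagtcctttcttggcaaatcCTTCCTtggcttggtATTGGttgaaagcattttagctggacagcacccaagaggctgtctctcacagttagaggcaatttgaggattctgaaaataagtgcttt

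The Cldn5 window held 2 CCAAT boxes and 1 GC box at a GC content of 59.6%, and the Tjp1 window held 2 GC boxes at 63.2%. The windows of Abcb1a and Slco1a4 were poorer in GC, at 40.4% and 39.2% against a median of 52.4% over 32851 promoters. Abcb1a carried 2 ETS cores, 2 TCF/LEF matches and 1 SOX match, and Slco1a4 carried 1 ETS core and 2 CCAAT boxes. Among the genes not shown, Flt1 had 2 ETS cores, 3 GC boxes and 1 TATA box at 70.4% GC, Slc2a1 had 2 GC boxes at 66.4% and Mfsd2a had 1 TCF/LEF match and 1 CCAAT box at 61.6%. Both Ocln entries held 1 GC box, and 1 of them also a CCAAT box. Matches of this kind were common, since 29.5% of all windows of this length held an ETS core, 13.8% a TCF/LEF match, 16.5% a SOX match, 33.8% a CCAAT box, 32.7% a GC box and 12.4% a TATA box. They describe the letters and say nothing of a factor bound there.

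Per kilobase of exon, Slc2a1 was the most abundant of the 10 transcripts in both regions, at 34.5 ± 4.24 CPM per kb in brainstem (SD, n = 23) and 19.98 ± 2.31 CPM per kb in hippocampus (SD, n = 24). Cldn5 at 16.4 ± 3.54 and Slco1a4 at 15.01 ± 1.48 CPM per kb followed in brainstem, and these neighbours did not differ beyond their spread. Tjp1 at 11.9 ± 0.869, Mfsd2a at 11.7 ± 1.62 and Abcb1a at 10.1 ± 0.782 CPM per kb lay close together below them. Flt1 at 7.52 ± 0.598 CPM per kb stood between that trio and a low trio of Pecam1, Cdh5 and Ocln, at 4.54 ± 0.425, 4.12 ± 0.613 and 3.76 ± 0.469. The order was different in hippocampus, where Cldn5 at 14.1 ± 3.44 and Tjp1 at 11.9 ± 0.873 CPM per kb came after Slc2a1 and did not differ beyond the spread of Cldn5. Slco1a4 had 7.25 ± 0.719, Mfsd2a 6.59 ± 1.06 and Abcb1a 5.63 ± 0.419 CPM per kb there, and each of these lay within the larger SD of its neighbour. Below these, Flt1 at 4.65 ± 0.389, Ocln at 3.31 ± 0.283, Pecam1 at 2.8 ± 0.342 and Cdh5 at 2.63 ± 0.341 CPM per kb closed the order. Length here was the union of all annotated exons of a gene, which can exceed the transcript expressed, so the order can depend on that choice.

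**Figure D1:**
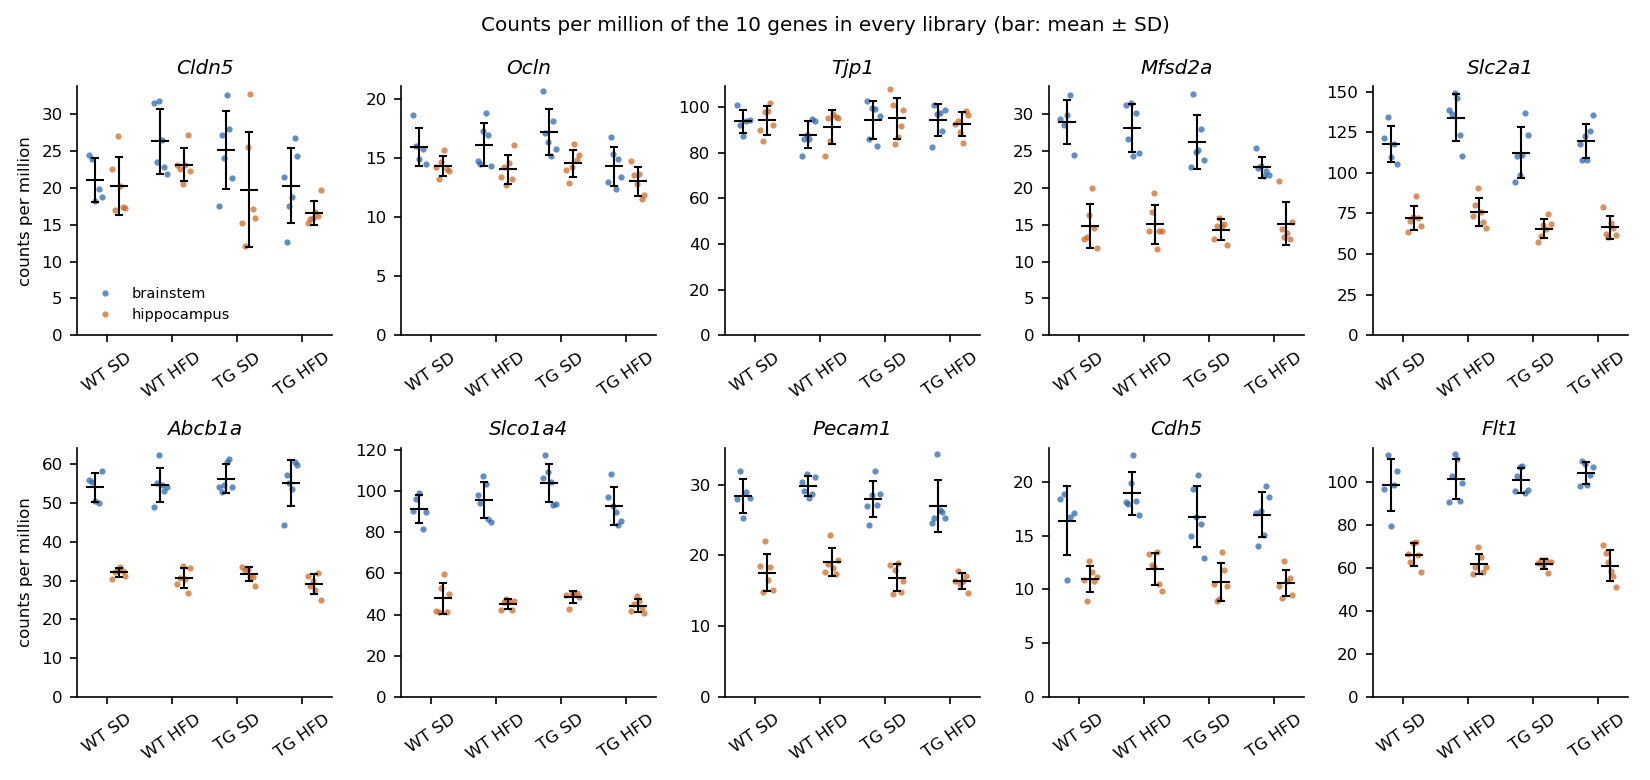
CPM of each of the 10 genes (vertical axes, from 0) by group (horizontal axes) in brainstem (blue) and hippocampus (orange). Points are single libraries and bars give the mean and SD. Mfsd2a, Slc2a1, Abcb1a, Slco1a4, Pecam1 and Flt1 were higher in every brainstem library than in every hippocampus library, while Cldn5 and Tjp1 overlapped over nearly their whole ranges.

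The transport genes and the endothelial adhesion and receptor genes were lower in hippocampus than in brainstem, and the tight junction genes differed little. All 4 transport genes and all 3 adhesion and receptor genes passed the test (edgeR quasi-likelihood, with thresholds of 0.05 for the adjusted p and of 0.3 for the size of the log2 fold change), and none of the 3 tight junction genes passed both thresholds. Over all 13993 tested genes 61.3% passed, with 4166 higher and 4415 lower in hippocampus. A count of 7 of 10 is close to this background of both directions, while all 7 were lower. The median log2 fold change of the 10 genes was −0.69, with 9 of them below 0, against −0.02 over all genes, of which 51.4% lay below 0. The 7 called genes were also called, and no others of the 10, within each of the 4 groups, where 60.4% (WT SD), 62.5% (WT HFD), 61.8% (TG SD) and 59.6% (TG HFD) of all genes passed. Leaving out both libraries of low GC slope kept the count at 7 of 10. The fit treats the libraries of the 2 regions as independent samples, although they may share mice. All p-values measure only the spread between these libraries.

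Slco1a4 had the largest difference. Its level ran from 81.8 CPM over a median of 94.2 to 117.4 CPM in the 23 brainstem libraries and from 40.7 over 46.6 to 59.8 CPM in the 24 hippocampus libraries. The regions did not overlap, and the log2 value of Slco1a4 fell by 1.04 (SE 0.0383, with an adjusted p of 1.6e-29 by edgeR). Abcb1a ran from 44.4 over 54.6 to 62.4 CPM in brainstem and from 24.9 over 31.1 to 33.7 CPM in hippocampus. It too was separated without overlap, at −0.84 (SE 0.0329, adjusted p = 3.25e-28 by edgeR). For Mfsd2a the lowest, median and highest levels were 21.6, 25.1 and 32.7 CPM in brainstem and 11.8, 14.3 and 20.9 CPM in hippocampus. The Mfsd2a ranges came close without touching, and the log2 value was −0.83 (SE 0.0559, adjusted p = 7.1e-19 by edgeR). Slc2a1 spanned 94.5 to 148.9 CPM with a median of 121.5 in brainstem and 57.3 to 90.5 CPM with a median of 68.9 in hippocampus, again with a gap between the regions. Slc2a1 stood at −0.79 (SE 0.043, adjusted p = 2.28e-22 by edgeR).

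Among the adhesion and receptor genes, Flt1 ran from 79.8 over a median of 103.1 to 113.2 CPM in brainstem and from 51.1 over 62.7 to 72.2 CPM in hippocampus. Pecam1 ran from 24.3 over 28.2 to 34.3 CPM and from 14.5 over 17.5 to 22.8 CPM. Neither gene overlapped between the regions. Their log2 fold changes were −0.69 (SE 0.0348, adjusted p = 8.46e-24) and −0.70 (SE 0.0426, adjusted p = 1.78e-20) by edgeR. Cdh5 ran from 10.8 over 17.3 to 22.5 CPM in brainstem and from 8.89 over 10.8 to 13.5 CPM in hippocampus. The Cdh5 ranges overlapped through low brainstem libraries, and Cdh5 stood at −0.64 (SE 0.0583, adjusted p = 2.88e-14 by edgeR). In all, 6 of the 10 genes did not overlap between the regions, each of them lower in hippocampus, against 35.3% of all tested genes that did not overlap in either direction.

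The tight junction genes stood close to 0. Tjp1 ran from 78.8 over a median of 93.8 to 102.7 CPM in brainstem and from 78.6 over 94.5 to 107.8 CPM in hippocampus. These ranges were nearly the same, and the log2 difference was 0.01 (SE 0.0315, edgeR adjusted p = 0.762). Ocln ran from 12.4 over 15.7 to 20.6 CPM and from 11.5 over 14 to 16.2 CPM, with overlap in most libraries. Its log2 fold change of −0.18 had an adjusted p of 0.000106 by edgeR (SE 0.0415) but missed the fold threshold, and with the counts corrected for GC content it was 0.12 (adjusted p = 0.0592). Cldn5 ran from 12.7 over 23.5 to 32.6 CPM in brainstem and from 12.1 over 18.6 to 32.8 CPM in hippocampus. The Cldn5 ranges coincided almost fully, and its value of −0.22 (SE 0.0832, adjusted p = 0.0149 by edgeR) missed the fold threshold as well. After correction for GC content the Cldn5 value was −0.38 (adjusted p = 2.92e-06) and passed both thresholds, which made the count 8 of 10 under that setting.

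Within the groups, the difference between regions had the same sign for the 7 called genes and similar size. The log2 fold change of Slco1a4 lay between −1.10 and −0.93, that of Abcb1a between −0.93 and −0.75, that of Slc2a1 between −0.85 and −0.71 and that of Flt1 between −0.77 and −0.57. Mfsd2a had the widest range, from −0.96 in WT SD (SE 0.114) to −0.59 in TG HFD (SE 0.111). The test of whether a genotype or diet contrast differed between the regions called none of the 10 genes in any of the 4 contrasts by edgeR, and none had an unadjusted p under 0.05 in them. The background there was 0.00715% for both genotype contrasts and 0% for both diet contrasts. Mfsd2a came nearest, with a region difference of 0.31 (SE 0.156) for TG HFD against WT HFD.

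**Figure D2:**
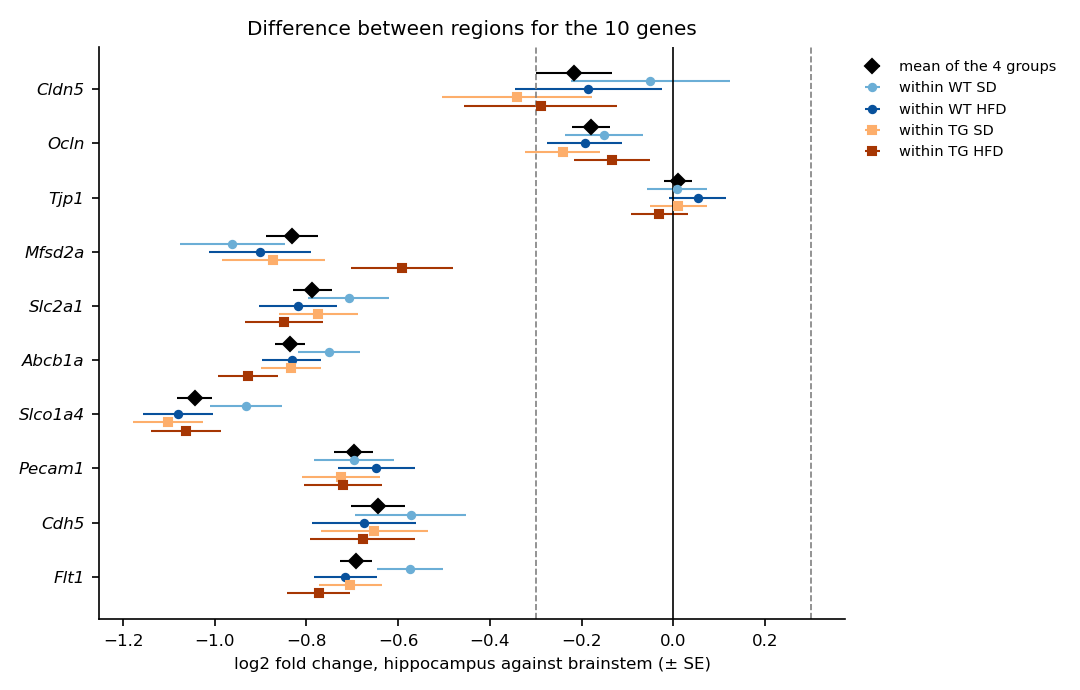
Log2 fold change of hippocampus against brainstem (horizontal axis) for each of the 10 genes, as the mean of the 4 groups (black diamonds) and within each group (coloured symbols), with bars of 1 SE. Dashed lines mark the threshold of 0.3 in either direction. The 3 tight junction genes lie between −0.34 and 0.05 and the other 7 lie between −0.57 and −1.10 in every group.

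Cldn5 was the 1 gene of the 10 with a called genotype difference. In brainstem on SD, the 5 WT libraries had 24.5, 23.9, 18.2, 19.8 and 18.8 CPM and the 6 TG libraries ran from 17.5 over a median of 25.6 to 32.6 CPM. The groups overlapped, and the lowest TG library, replicate 1 of low GC slope, lay below all 5 WT libraries. Means were 21 ± 2.96 CPM in WT SD (SD, n = 5) and 25.1 ± 5.31 CPM in TG SD (SD, n = 6). Surrogate variables are meant to take up variation that the groups do not explain. They can overlap with the groups and so move group differences as well. With 4 of them in the model, the log2 fold change was 0.39 (SE 0.0848) and passed both thresholds, and 0.135% of all genes did so. Without surrogate variables it was 0.26 (SE 0.158) and did not pass, where 0.03% of all genes did. With both libraries of low GC slope left out and surrogate variables in the model, it was 0.41 (SE 0.0888) and was called. With a correction of the counts for GC content instead, it was 0.19 (SE 0.136) and not called. The call was also lost in 6 of the 23 fits that each left out 1 library, namely without TG SD replicate 2, 5 or 6 or WT SD replicate 1, 6 or 8, with values between 0.30 and 0.40.

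On HFD the order of the genotypes in brainstem was the opposite in CPM. Cldn5 ran from 21.8 over 25 to 31.7 CPM in WT HFD and from 12.7 over 20.1 to 26.8 CPM in TG HFD. These groups overlapped, with means of 26.3 ± 4.39 and 20.3 ± 5.05 CPM (SD, n = 6 each). The log2 fold change was 0.04 (SE 0.102) with surrogate variables and −0.37 (SE 0.15) without, and neither was called, against a background of 0.045% and 0.0375%. The diet contrast of Cldn5 was 0.03 (SE 0.0909) in WT and −0.33 (SE 0.0857, edgeR adjusted p = 0.395) in TG with surrogate variables, and 0.33 (SE 0.157) and −0.30 (SE 0.151) without. Its interaction of genotype and diet was −0.36 (SE 0.131, edgeR adjusted p = 0.984) with surrogate variables and −0.63 (SE 0.218, adjusted p = 0.612) without, and was not called in either fit. Leaving out both libraries of low GC slope, with surrogate variables, gave Cldn5 values of 0.05 (SE 0.108) for TG HFD against WT HFD, −0.00176 (SE 0.101) for the diet contrast in WT, −0.36 (SE 0.0951) for that in TG and −0.36 (SE 0.139) for the interaction, with none called.

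In hippocampus Cldn5 was lower in every TG HFD library than in every WT HFD library. It ran from 20.5 over 22.8 to 27.2 CPM in WT HFD and from 15.2 over 16.1 to 19.7 CPM in TG HFD, with means of 23.1 ± 2.22 and 16.6 ± 1.61 CPM (SD, n = 6 each). It was the 1 gene of the 10 whose groups did not overlap in this contrast, where 4.15% of all tested genes did not overlap. The log2 fold change was −0.22 (SE 0.147, edgeR adjusted p = 0.565) with surrogate variables and −0.48 (SE 0.165, adjusted p = 0.0752) without. With the counts corrected for GC content it was −0.0748. Neither of the first values passed, while 0.309% and 3.88% of all genes did. With only WT HFD and TG HFD in the model and no surrogate variables, the value of −0.48 had an adjusted p of 0.000475 by edgeR and was called, as were 595 genes in all. On SD, Cldn5 ran from 17 over 18.8 to 27 CPM in WT and from 12.1 over 16.5 to 32.8 CPM in TG, so that the TG range enclosed the WT range. The log2 fold change was −0.04 (SE 0.117) with surrogate variables and −0.02 (SE 0.164) without. Its diet contrasts were 0.04 (SE 0.125) in WT and −0.14 (SE 0.112) in TG with surrogate variables. Outside the HFD genotype contrast, none of the 10 genes was free of overlap in hippocampus, against 0.264% of all genes for TG SD against WT SD, 0.467% for WT HFD against WT SD and 0.0226% for TG HFD against TG SD.

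The other 9 genes showed no called difference by edgeR in any genotype or diet contrast of either region, with or without surrogate variables. Taking all 10 genes and surrogate variables, the calls numbered 0 in brainstem for TG HFD against WT HFD, WT HFD against WT SD, TG HFD against TG SD and the interaction, where 0.045%, 0.015%, 0.0075% and 0.0075% of all genes were called. An unadjusted p under 0.05 was reached by 1, 1, 3 and 2 of the 10 genes and by 716, 720, 938 and 639 of the 13340 tested genes. In hippocampus the calls numbered 0 in the same 4 contrasts and in TG SD against WT SD, where 0.309%, 0.0377%, 0%, 0% and 0.0904% of all genes were called. There, 6 genes had an unadjusted p under 0.05 for TG HFD against WT HFD, 0 for WT HFD against WT SD, 2 for TG HFD against TG SD, 1 for the interaction and 1 for TG SD against WT SD. Of the 13272 tested genes, 1600, 900, 965, 845 and 1273 did so in the same order. DESeq2 with surrogate variables called Cldn5 in brainstem for TG SD against WT SD and 0 of the 10 genes in each of the other contrasts.

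Within brainstem, Ocln, Mfsd2a and Pecam1 had the next largest values in the fit with surrogate variables. Mfsd2a levels were 29.3, 28.4, 29.9, 32.6 and 24.4 CPM in WT SD, and its lowest, median and highest levels were 24.3, 28.4 and 31.5 CPM in WT HFD, 22.9, 25 and 32.7 CPM in TG SD and 21.6, 22.4 and 25.4 CPM in TG HFD. TG libraries thus tended low, with overlap in each contrast. The log2 fold change of Mfsd2a was −0.20 (SE 0.0753) for TG SD against WT SD and −0.12 (SE 0.0929) for TG HFD against WT HFD, and without surrogate variables −0.14 and −0.30 (SE 0.0884). Ocln levels were 18.6, 16, 14.9, 15.7 and 14.5 CPM in WT SD, and ran from 14.3 over 15.8 to 18.8 CPM in WT HFD, from 15.2 over 16.7 to 20.6 CPM in TG SD and from 12.4 over 14.1 to 16.8 CPM in TG HFD. The TG HFD libraries were the lowest as a group and overlapped with the rest. The mean log2 CPM of the choroid plexus genes had the same order of groups as Ocln, at 1.86 in TG HFD, 2.10 in WT SD, 2.48 in WT HFD and 2.67 in TG SD. Single TG HFD libraries ran from −0.216 to 4.9, so these means rest on wide spreads. In hippocampus the orders differed, with the choroid plexus genes lowest in WT HFD and Ocln lowest in TG HFD. Within groups, their r with Ocln was 0.608 in brainstem and 0.0756 in hippocampus. Among the other barrier genes in brainstem, this r ran from −0.469 (Pecam1) to 0.336 (Mfsd2a), and no p-value was computed. The part of the choroid plexus genes in the Ocln values was not tested. The log2 fold change of Ocln in brainstem was −0.20 (SE 0.0845) for TG HFD against TG SD and −0.17 (SE 0.102) for TG HFD against WT HFD, and −0.26 and −0.17 without surrogate variables. Pecam1 had −0.28 (SE 0.0792) for TG HFD against WT HFD with surrogate variables and −0.14 (SE 0.0766) without, from levels of 28.1 over 29.7 to 31.6 CPM in WT HFD and of 24.6 over 25.7 to 34.3 CPM in TG HFD. Of the 6 TG HFD libraries, 5 lay below all WT HFD libraries for Pecam1 and replicate 4 lay above them all.

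For Slc2a1, Abcb1a, Slco1a4, Cdh5, Flt1 and Tjp1 in brainstem, the log2 fold changes with surrogate variables lay between −0.03 and 0.14 for TG SD against WT SD and between −0.03 and −0.01 for TG HFD against WT HFD, and between −0.10 and 0.10 in both diet contrasts. Without surrogate variables some were larger, with Cdh5 at 0.21 (SE 0.125) and Slc2a1 at 0.19 (SE 0.0897) for WT HFD against WT SD and Slco1a4 at 0.19 (SE 0.077) for TG SD against WT SD. Slc2a1 was highest in WT HFD, at 110.3 over 137.5 to 148.9 CPM, against 105.6 over 117.6 to 134.3 CPM in WT SD, with overlap. Slco1a4 was highest in TG SD, at 93.3 over 105.4 to 117.4 CPM, against 81.8 over 90.3 to 99.4 CPM in WT SD, also with overlap. Neither difference passed the test, with log2 values of 0.07 (SE 0.0573) for the Slc2a1 diet contrast in WT and 0.12 (SE 0.0574) for the Slco1a4 genotype contrast on SD. None of the 10 genes was free of overlap between the groups of any brainstem contrast, against 0.532% of all genes for TG SD against WT SD, 0.682% for TG HFD against WT HFD, 0.427% for WT HFD against WT SD and 0.172% for TG HFD against TG SD.

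In hippocampus all 10 genes had a log2 fold change below 0 for TG HFD against WT HFD, from −0.28 (Pecam1) to −0.10 (Cdh5) with a median of −0.18, and none was called. Over all tested genes 52.2% lay below 0 and the median was −0.01. Abcb1a stood at −0.22 (SE 0.0699, edgeR adjusted p = 0.151), Ocln at −0.21 (SE 0.0943), Slc2a1 at −0.20 (SE 0.0813), Slco1a4 at −0.17 (SE 0.0711), Flt1 at −0.16 (SE 0.0664), Tjp1 at −0.11 (SE 0.0542) and Mfsd2a at −0.11 (SE 0.139). This shared direction depended on the correction used. Without surrogate variables 8 of 10 genes lay below 0 with a median of −0.10, and with the counts corrected for GC content 3 of 10 did, with a median of 0.02. The interaction of genotype and diet, which shares these libraries, was likewise below 0 for all 10 genes, at −0.22 (Ocln) to −0.04 (Flt1), with 7 below 0 without surrogate variables and 3 below 0, at a median of 0.0455, with the GC correction.

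The Pecam1 levels behind the largest of these values ran from 17.4 over 18.6 to 22.8 CPM in WT HFD and from 14.6 over 16.4 to 17.9 CPM in TG HFD. Abcb1a ran from 26.9 over 30.6 to 33.7 CPM and from 24.9 over 29.2 to 31.9 CPM. Slc2a1 ran from 66.1 over 74.6 to 90.5 CPM and from 60.4 over 64.1 to 79.1 CPM. Each of these genes overlapped between the genotypes, Abcb1a over most of its range. On SD the hippocampus genotype contrast lay below 0 for 9 of 10 genes with surrogate variables, at −0.12 (Slc2a1) to 0.00 (Ocln) with a median of −0.05, and for 7 of 10 without. In brainstem the signs depended on the setting. For TG SD against WT SD, 2 of 10 genes lay below 0 with surrogate variables (median 0.05), 2 without the libraries of low GC slope and 9 with the GC correction (median −0.143). For TG HFD against WT HFD the counts below 0 were 9 (median −0.02), 5 (median 0.000458) and 8 (median −0.149) in the same order. For WT HFD against WT SD they were 1 (median 0.05), 6 (median −0.00704) and 2 (median 0.0679). For TG HFD against TG SD they were 9 (median −0.07), 9 (median −0.111) and 3 (median 0.124). Contrasts that share a group share its libraries, so these counts are not independent of one another.

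**Figure D3:**
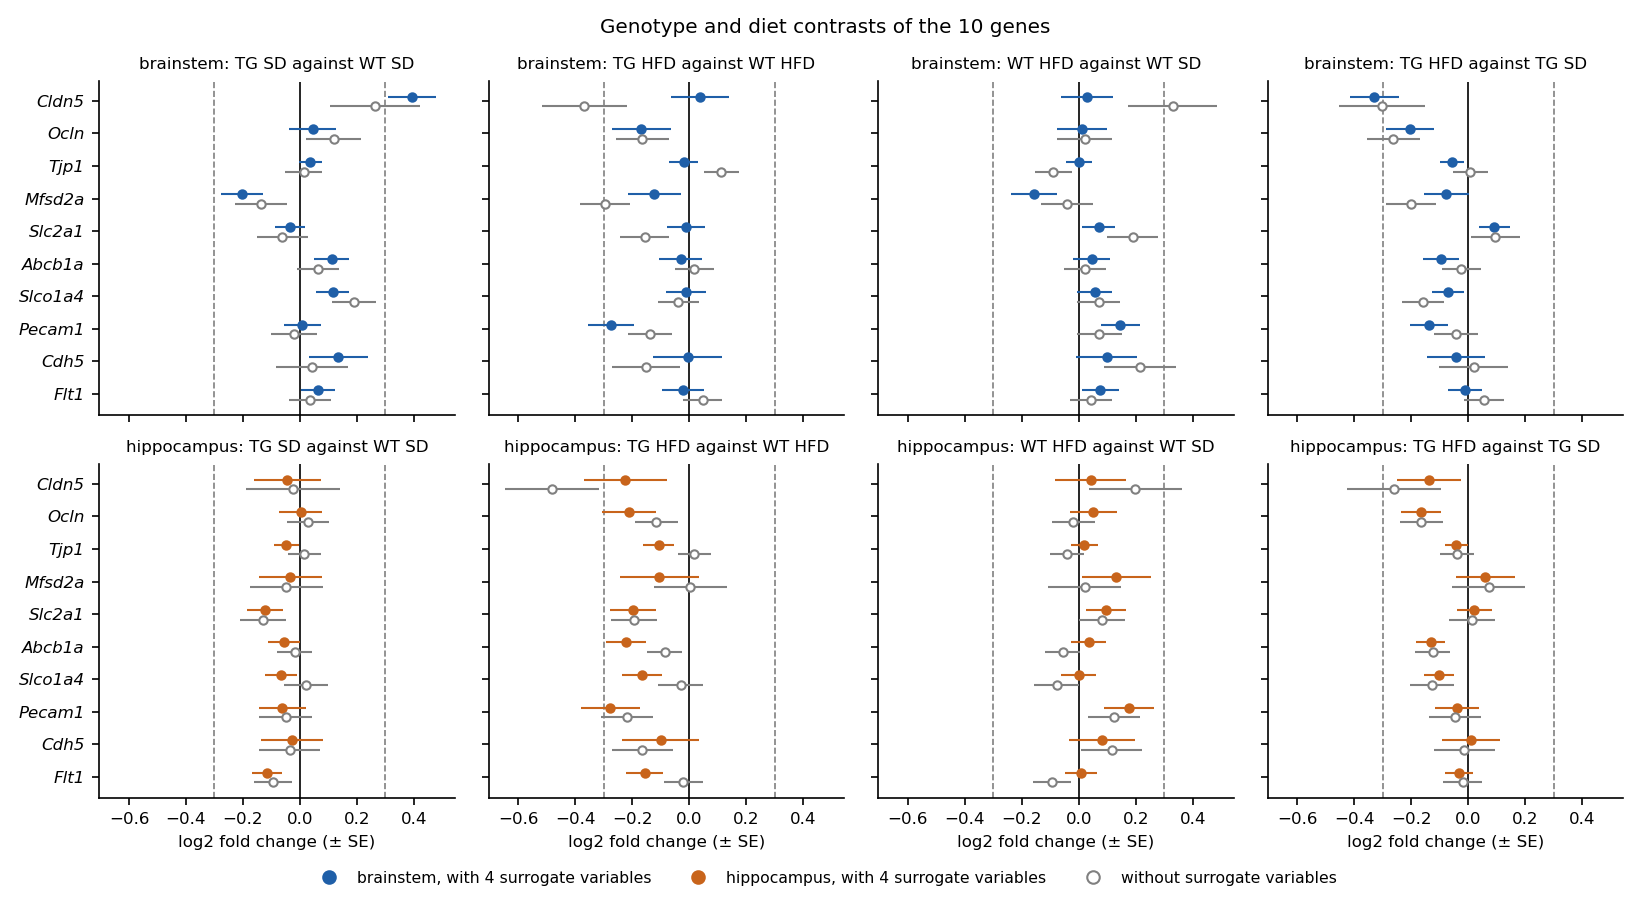
Log2 fold change of the 10 genes in 4 genotype and diet contrasts (columns) in brainstem (upper row) and hippocampus (lower row), with bars of 1 SE. Filled points are from the model with 4 surrogate variables, open grey points from the model without, and dashed lines mark 0.3 in either direction. Cldn5 in brainstem moved most between the models, from 0.04 to −0.37 for TG HFD against WT HFD and from 0.03 to 0.33 for WT HFD against WT SD.

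Cldn5 varied more between libraries of the same group than the other 9 genes did. The SD of its log2 CPM within groups was 0.294 in brainstem and 0.317 in hippocampus, which placed it at the 93.3 and 98.2 percentile of tested genes. Tjp1 had an SD of 0.105 in both regions, and Cdh5 in brainstem at 0.226 and Mfsd2a in hippocampus at 0.238 came after Cldn5. The 4 surrogate variables took up 81% of the within-group variance of Cldn5 in brainstem and 55.5% in hippocampus. For the other 9 genes the share ran from 31.9% (Flt1) to 69.4% (Slc2a1) in brainstem and from 19.9% (Cdh5) to 60.2% (Slco1a4) in hippocampus. In hippocampus Slco1a4 and Tjp1 (57.9%) thus lay above Cldn5. The exons of Cldn5 hold 60.5% GC, at the 97.2 percentile of 12619 genes tested in both regions, whose median was 49.3%.

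Its level followed the GC slope of the library. That slope is computed from all genes, so genes of high GC content tend to rise with it by construction. The permutation p-values therefore do not set Cldn5 apart, and genes of like GC content were not compared. With group means removed, Cldn5 and the GC slope correlated at r = 0.856 and rho = 0.772 over 23 brainstem libraries (permutation within groups, p = 2e-05, adjusted p = 0.0012 over 60 relations, and for rho p = 0.00019, adjusted p = 0.00885). Leaving out the 2 libraries farthest from the median slope gave r = 0.737. In hippocampus the values were r = 0.58 and rho = 0.57 over 24 libraries (permutation p = 0.0164, adjusted p = 0.0982, and for rho p = 0.0122, adjusted p = 0.0817), with r = 0.594 without the 2 farthest libraries. Groups differed in the slope too, with brainstem means of 0.11 in WT HFD, 0.01 in WT SD, −0.08 in TG SD and −0.04 in TG HFD. The hippocampus means were 0.10, 0.01, −0.05 and −0.05 in the same order. In both regions TG HFD thus had a lower mean slope than WT HFD, and the part of the slope in the Cldn5 values was not tested beyond the corrections given above.

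**Figure D4:**
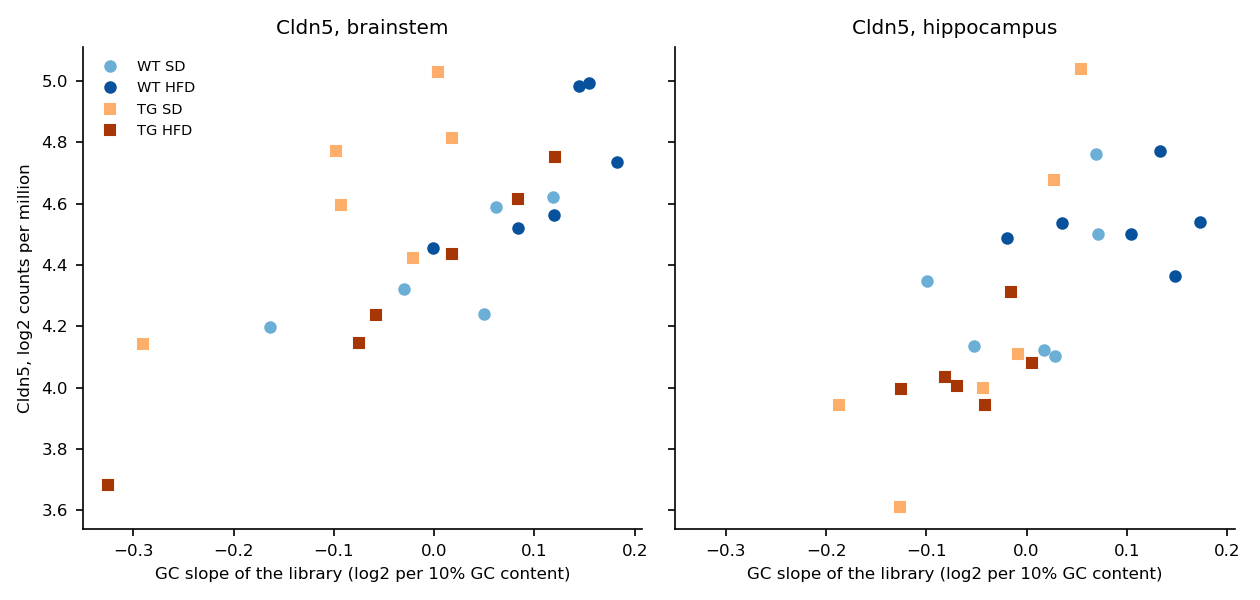
Cldn5 level (vertical axis, log2 CPM) against the GC slope of the library (horizontal axis, log2 per 10% GC content) in brainstem (left) and hippocampus (right), with 1 point per library. Colours and symbols give the group. Libraries of low slope, among them brainstem TG HFD replicate 3 at −0.33 and TG SD replicate 1 at −0.29, had low Cldn5 levels, and WT HFD had the highest mean slope in both regions.

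Of 60 relations computed between the 10 genes and the GC slope, pericyte genes or blood cell genes in both regions, 8 had an adjusted permutation p under 0.05. The share of all tested genes with such relations was not computed, so this count does not set the 10 genes apart. Besides Cldn5 these were, with the GC slope, Slc2a1 in brainstem (r = 0.681, rho = 0.68, permutation p = 0.00038, adjusted p = 0.0053, r = 0.643 without 2 libraries), Cdh5 in brainstem (r = 0.644, rho = 0.607, permutation p = 0.00215, adjusted p = 0.0161, r = 0.641) and Tjp1 in hippocampus. Tjp1 went the other way, at r = −0.723 and rho = −0.72 (permutation p = 0.00053, adjusted p = 0.0053, r = −0.672 without 2 libraries). With the mean log2 CPM of the pericyte genes in brainstem, Cldn5 gave r = 0.735 and rho = 0.714 (permutation p = 7e-05, adjusted p = 0.0021, r = 0.764 without 2 libraries). Slc2a1 gave r = 0.717 and rho = 0.691 with the same genes (permutation p = 0.00015, adjusted p = 0.003, r = 0.712), and Cdh5 gave r = 0.661 and rho = 0.639 (permutation p = 0.00169, adjusted p = 0.0145, r = 0.509). Slc2a1 in hippocampus followed the blood cell genes (r = 0.681, rho = 0.629, permutation p = 0.00048, adjusted p = 0.0053, r = 0.68). For rho the permutation p of these 8 relations ran from 0.00019 to 0.00404 and the adjusted p from 0.00885 to 0.0303. The measures share libraries and base composition, so the relations are not independent of one another.

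The 10 genes did not vary as 1 block. Over the 45 pairs, the median within-group r was 0.205 in brainstem, from −0.527 to 0.667 with 31 pairs above 0, and 0.31 in hippocampus, from −0.285 to 0.727 with 39 pairs above 0. The highest values were Cldn5 with Cdh5 in brainstem and Mfsd2a with Slc2a1 in hippocampus. Ranked by the lower of both regional r values over 12619 genes, the 5 genes most like Cldn5 included Dpm3 (0.866 in brainstem, 0.774 in hippocampus), Gm12922 (0.789, 0.772), Gm8730 (0.812, 0.754) and Ptpa (0.827, 0.752), over 23 and 24 libraries. None of these is an endothelial gene of the lists, and their exons hold 54.1% to 57.6% GC. Gm12922 and Gm8730 are predicted genes, whose reads may be shared with near-identical copies. The nearest of the other 9 genes was Cdh5 at rank 1186, and the farthest was Tjp1 at rank 9412. All of these correlations share libraries and base composition and are descriptions.

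**Figure D5:**
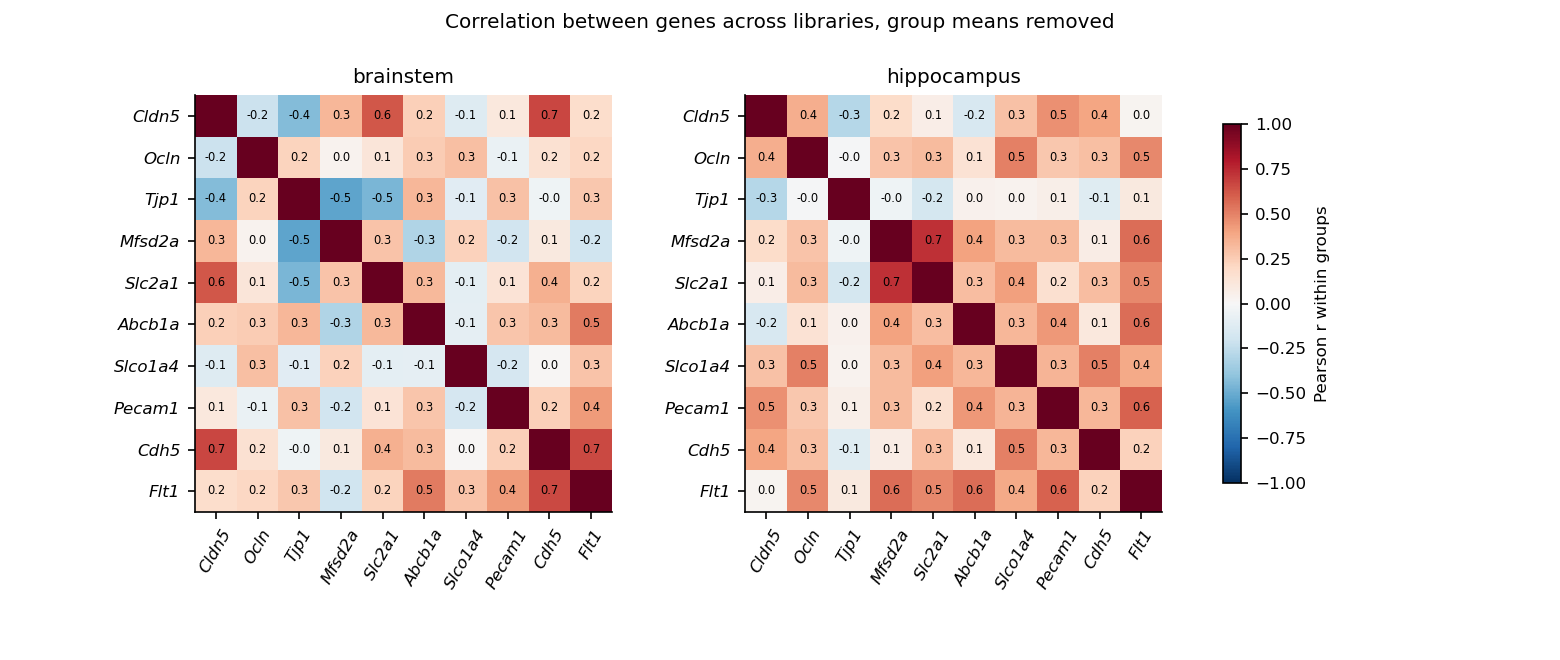
Pearson r between each pair of the 10 genes over the 23 brainstem (left) and 24 hippocampus (right) libraries, computed on log2 CPM with the group means removed, from −1 (blue) to 1 (red). In brainstem the pairs of Tjp1 run from −0.527 with Mfsd2a to 0.33 with Abcb1a, and the median over the 45 pairs is 0.205 in brainstem and 0.31 in hippocampus.

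Other genes of the barrier and its neighbours are given for the difference between the regions. Of 17 other endothelial surface and transport genes tested, 10 were lower in hippocampus and 2 higher, with a median log2 fold change of −0.42. They included the monocarboxylate carrier gene Slc16a1 at −0.95, Ly6a at −0.91, Ly6c1 at −0.88 and Itm2a at −0.78, while Slc39a10 and Lrp8 were higher at 0.66 each. Of 23 endothelial junction and identity genes tested, 18 were lower and 2 higher, with a median of −0.53. Cgnl1, which encodes a junction protein, had −2.45, the sialomucin gene Emcn −0.999, the junction adhesion gene Jam2 −0.99, Cd93 −0.97 and the transcription factor gene Erg −0.81, while Ramp2 at 0.64 and Cd34 at 0.63 were higher. The 15 tested genes of barrier Wnt signalling split, with 5 lower and 3 higher and a median of −0.01. Lef1 had −0.56, Tspan12 −0.55, the ligand gene Wnt7b 1.06 and the target gene Axin2 0.76. Of 5 leak and activation genes, 2 were lower, Mmp9 at −1.67 and Cav1 at −0.84. All these counts stand beside the same background of 61.3% in both directions, with 4166 higher and 4415 lower among 13993 genes.

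Genes of neighbouring cell types moved between the regions as well, and their part in the differences of the 10 genes was not tested. Of 8 pericyte genes tested 5 were lower in hippocampus, with Abcc9 at −1.09, Kcnj8 at −0.82, Notch3 at −0.77 and Rgs5 at −0.76, and 1 was higher, Cspg4 at 0.44 (median −0.53). Of 8 vascular basement membrane genes 4 were lower (median −0.23), Nid1 at −1.50, Hspg2 at −0.57, Lama4 at −0.45 and Lama5 at −0.32. Of 7 astrocyte endfoot genes 4 were lower and 1 higher (median −0.30), with the potassium channel gene Kcnj10 at −2.10, the water channel gene Aqp4 at −1.38, Hepacam at −0.74, Gja1 at −0.30 and Dag1 at 0.49. None of 3 smooth muscle genes was called by edgeR, with values from −0.26 to 0.18. All 5 blood cell genes were lower, from −2.38 (Hbb-bt) to −1.88 (Hba-a1), with a summed level of 602 to 3366 CPM in brainstem and 169 to 576.3 CPM in hippocampus. Of 5 choroid plexus genes 4 were lower, Kcne2 at −4.01, Slc4a5 at −3.95, Ttr at −3.60 and Clic6 at −1.45, with sums of 14.6 to 3004 CPM and 38.4 to 321.4 CPM. All 6 oligodendrocyte genes were lower, among them Mog at −2.25, Mag at −2.19 and Cldn11 at −1.53, with sums of 11770 to 20180 CPM and 2853 to 4465 CPM. The single ependymal gene tested, Foxj1, was lower at −1.68. Of 5 microglia and macrophage genes 4 were higher, P2ry12 at 0.67, Tmem119 at 0.58, Csf1r at 0.52 and Cx3cr1 at 0.41. Of 6 meningeal fibroblast genes 4 were higher, Dcn at 0.96, Lum at 0.58, Ogn at 0.49 and Myoc at 0.39, and Col1a2 was lower at −1.49. Of 5 neuronal genes 2 were higher, Syt1 at 2.57 and Rbfox3 at 1.51, and 2 were lower, Tubb3 at −1.20 and Snap25 at −0.42. The 10 barrier genes summed to 526.1 to 651.5 CPM in brainstem and 346.3 to 433.2 CPM in hippocampus, and none of them was at 0 in any library.

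In the genotype and diet contrasts with surrogate variables, 1 of 116 tested genes of these other lists was called in brainstem and 0 of 109 in hippocampus, by edgeR. The called gene was the meningeal fibroblast gene Myoc, at 0.84 (log2, SE 0.154) in TG SD against WT SD. Cldn5 was called in the same contrast, and both calls are descriptions, since the lists were drawn up with earlier results of these data known. Over all genes 0.135% were called in that contrast. Without surrogate variables no gene of the lists was called there, where 0.03% of all genes were. In hippocampus 7 were then called for TG HFD against WT HFD, where 3.88% of all genes were. With surrogate variables in brainstem, an unadjusted p under 0.05 was reached by 6 to 13 of the 116 genes per contrast. Over all 13340 tested genes, 639 to 1384 reached it. In hippocampus it was reached by 7 to 21 of the 109 genes and by 845 to 1600 of all 13272. The blood cell genes had brainstem medians of −0.34 for TG SD against WT SD, 0.60 for TG HFD against WT HFD, −0.69 for WT HFD against WT SD and 0.30 for TG HFD against TG SD, with none called. Within groups, Cldn5 and the blood cell genes gave r = 0.263 over 23 brainstem libraries (permutation p = 0.229, adjusted p = 0.53). The part of the listed genes in the Cldn5 contrast was not tested.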

How the data were processed

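The authors sequenced poly(A)-selected RNA and deposited raw whole-number counts per gene for each region, aligned per their methods to a mouse genome of Ensembl version 104 with the human transgene added. The submitters' processing notes name FastQC 0.11.9, STAR 2.7.9a and DESeq2 1.32.0. The counting program and its strand setting are not given in the sources used here. Libraries were grouped by the genotype and diet of the labels. Members and gene lists were chosen with earlier results of these data known.

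Symbols were matched for 34400 of 35032 gene IDs and for all 163 genes of the lists. Genes averaging 50 counts or more per library were tested with edgeR 4.0.16 (quasi-likelihood, TMM) in R 4.3.3. Each region was fitted apart with 4 surrogate variables (sva 3.50.0), and the regions were compared over 47 libraries with 8 group means and 0 surrogate variables. Calls needed both an adjusted p (Benjamini-Hochberg) within 0.05 and a log2 fold change of 0.3 or more in size. Named were all 10 genes, the 5 genes most like Cldn5, and up to 5 called genes of each other list, with some items that the rule takes not reported here. Exon length and GC content came from GENCODE on GRCm38, which is not the build of the counts, so no coordinates are given for them. Totals of 10020784 to 17328447 counts per library set the precision, and no pair of libraries of the same group agreed within sampling noise. Pairs from different groups were not compared.

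The alternatives were 0 or 2 surrogate variables, RLE scaling, DESeq2 1.42.0, other filters, no fold threshold, a loess correction for GC content, the replicate number as a block, the compared groups alone, and each library left out in turn. The omission of both libraries of low GC slope was added after seeing the data. Simulated counts with 200 changed genes were drawn independently per gene, with no hidden variation shared between genes. For TG SD against WT SD, the brainstem fit with 4 surrogate variables recovered 91% of changes of 1 and 64% of changes of 0.5 (log2). It made 5 false calls. The hippocampus fit recovered 92% and 68% with 6 false calls, and the region fit 100% and 99% with 0. The simulation lacked the shared variation that surrogate variables take up, so recovery in the real libraries was not measured.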

Additional observations from a re-analysis of the deposited data

Results flagged for a closer look

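Of 88 tests, each of 1 measure over the 5 or 6 libraries of a group, 7 flagged 1 library as far from the others by Dixon's test. By chance this happens in about 1 of 20 tests, and tests on the same libraries are not independent. Cldn5 in hippocampus TG HFD replicate 8 had 19.73 CPM against 15.23 to 16.75 CPM in the other 5. Mfsd2a had 25.43 CPM in brainstem TG HFD replicate 1 against 21.62 to 22.95 CPM, and 20.85 CPM in hippocampus TG HFD replicate 3 against 13.03 to 15.34 CPM. Slco1a4 in hippocampus TG SD replicate 4 was low, at 42.55 CPM against 48.41 to 50.31 CPM. Pecam1 had 34.26 CPM in brainstem TG HFD replicate 4 against 24.56 to 26.36 CPM, and 22.82 CPM in hippocampus WT HFD replicate 5 against 17.4 to 19.28 CPM. Cdh5 in brainstem WT SD replicate 6 was low, at 10.83 CPM against 16.73 to 18.85 CPM.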

How the results depend on the processing

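The count of 7 genes called between the regions became 8 with the GC correction and 9 with no fold threshold (Cldn5 and Ocln added), and was 7 under the other alternatives run. In brainstem, the count for TG SD against WT SD (1, Cldn5) became 0 with 0 surrogate variables, in edgeR and DESeq2, with the GC correction, and with the replicate block or the compared groups alone, both of which also had 0 surrogate variables, and ran from 0 to 1 when 1 library was left out. The Cldn5 value behind it ran from 0.30 to 0.46 in those 23 fits and was 0.28 with the block. In hippocampus, the count for TG HFD against WT HFD (0) became 1, Cldn5, with the replicate block and 0 surrogate variables (−0.49) and with the compared groups alone and 0 surrogate variables (−0.48). With 0 surrogate variables alone the value was −0.48 and not called. The GC correction turned the sign of Slco1a4 for TG SD against WT SD (−0.0535), Pecam1 for TG HFD against TG SD (0.10) and the interaction (0.0415) in brainstem, of Slc2a1 (0.0149), Abcb1a (0.019), Slco1a4 (0.0475) and Flt1 (0.14) for TG HFD against WT HFD and of Abcb1a for the interaction (0.0329) in hippocampus, and of Ocln between the regions (0.12). The cause was not tested. Libraries sharing a replicate number had a median r of 0.0392 in brainstem, 0.0651 in hippocampus and 0.125 across regions, with 10 of 26, 15 of 36 and 10 of 17 pairs over 0.1. For different numbers the medians were −0.026, −0.0414 and −0.0238, with 60 of 172, 43 of 180 and 31 of 121 pairs over 0.1. The medians were higher for shared numbers, and whether a shared number names the same mouse was not settled. The main fits used no pairs. With shared numbers as a block over 34 libraries, the median region difference of the 10 genes was −0.747. With 0 surrogate variables, the block moved the calls over all genes from 4 to 3 in the first contrast and from 515 to 573 in the other, against 18 and 41 with surrogate variables.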
